A study of Mus musculus with 10 samples.

Results

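To examine what the loss of both copies of Usp7 does to gene expression in the newborn thymus, homozygous Usp7 knock-out (KO) thymus was compared with wild type thymus over every gene that passed a filter on low counts. The members were the 3 libraries titled homozygous KO and the 4 titled wild type, 7 of the 10 libraries of the series, and 19511 of the 35375 features in the count table passed the filter and were tested. Each library held thymus RNA, freed of ribosomal RNA, from the C57BL/6J background 3 days after birth. By their labels the homozygous KO libraries lack Usp7 on both alleles in the hematopoietic system, to which the epithelium and fibroblasts of the thymus do not belong. The promoter that drives Cre is not named in the labels. The series text states that cre was induced in 2 of the 4 wild types and not in the other 2, but no label ties this to a library. All 4 are titled wild type, yet the count table names replicates 3 and 4 with het after wt and replicates 1 and 2 with wt in duplicate, a split into the same numbers, and what het stands for there is not stated. The 3 remaining libraries, heterozygous KO on the same background and at the same age, entered the same fit and are quoted only to place a level.

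USP7, also named HAUSP, is a deubiquitinating enzyme. It is best known for taking ubiquitin off p53 and off MDM2, the ligase that marks p53 for degradation, and it also acts on Polycomb proteins and on UHRF1 and DNMT1, which maintain DNA methylation. In the thymus, progenitors without CD4 and CD8 receive Notch signals, rearrange the T-cell receptor beta gene and divide. They then become CD4+CD8+ double-positive cells, which rearrange the receptor alpha gene and, if selected, mature into CD4+ or CD8+ cells that leave the organ. B cells, dendritic cells, macrophages and epithelium support and select them.

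Total counts were 122380785, 107484897 and 92261908 in the homozygous KO libraries and 39833850, 41018941, 86366734 and 80962924 in the wild type libraries, so that a floor of 3 counts was 0.0260 to 0.0333 CPM (counts scaled to a common library size, with TMM factors) in the former and 0.0338 to 0.0737 CPM in the latter. Floors cover counting error only. Usp7 itself was at 303, 422 and 408 CPM in homozygous KO, 472, 516 and 516 CPM in heterozygous KO and 676, 670.3, 594 and 589 CPM in wild type thymus. The homozygous KO level was 59.7% of wild type, with no overlap (log2 fold change -0.74 ± 0.11 (SE), edgeR adjusted p = 5.25e-04). Wild type replicates 3 and 4, whose columns carry het, were below replicates 1 and 2. Reads were counted over the whole gene, so that this level does not show the deleted part and is no full check of the label. For Usp7, permuting the 7 libraries in an exact test, two-sided, gave p = 0.0286, the smallest p that 35 splits allow. Thymocyte markers were high in all 7 libraries, with Cd3e at 408, 430.2 and 396 CPM in homozygous KO and 437, 439, 451 and 414 CPM in wild type, while markers of heart muscle (Myh6), brown fat (Ucp1, Adipoq), parathyroid (Pth, Gcm2) and lung (Sftpc) were at most at 0.391 CPM in these 7. Muscle Acta1 was called higher, at 0.599 to 1.13 CPM against 0.313 to 0.516 CPM, a call lost without any 1 library other than homozygous KO replicate 1 or wild type replicate 1, and Tg (thyroglobulin) was at 4.75 to 5.59 CPM against 5.38 to 8.18 CPM and was not called. Xist was high in homozygous KO replicate 3 and in wild type replicates 2, 3 and 4 (at least 1913 CPM) and at most at 1.12 CPM in the other 3 libraries, so sex and genotype overlapped in part.

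Of the 19511 genes tested, 5030 (25.8%) passed an adjusted p of 0.05 in edgeR's quasi-likelihood test, 2446 (12.5%) higher in homozygous KO and 2584 (13.2%) lower. Over all genes tested the median was -0.01 on the log2 scale. The groups did not overlap for 3187 genes (16.3%) that lay higher in homozygous KO and 3198 (16.4%) that lay lower. Counts of called or non-overlapping members in the lists below are to be set against these shares. Changes of more than 2-fold (1859 genes, 9.53%) were mostly losses, with 533 genes higher (2.73%) and 1326 lower (6.8%), and over 8-fold 90 genes were higher and 244 lower. The direction went with the level of the gene. Among the 791 genes whose average log2 CPM reached 8, 304 were higher and 31 lower, whereas among the 2756 genes between 2 and 4 the counts were 263 higher and 586 lower. The scaling bore on this split: with library totals in place of TMM, the median moved to -0.11 and 29.0% of the calls were higher, against 48.6%. Leaving out 1 of the 7 libraries at a time gave 3945 to 4933 calls. In homozygous against heterozygous KO, which shares the homozygous KO libraries, 3342 genes (17.1%) were called, 1489 higher (7.63%) and 1853 lower (9.5%).

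**Figure D1:**
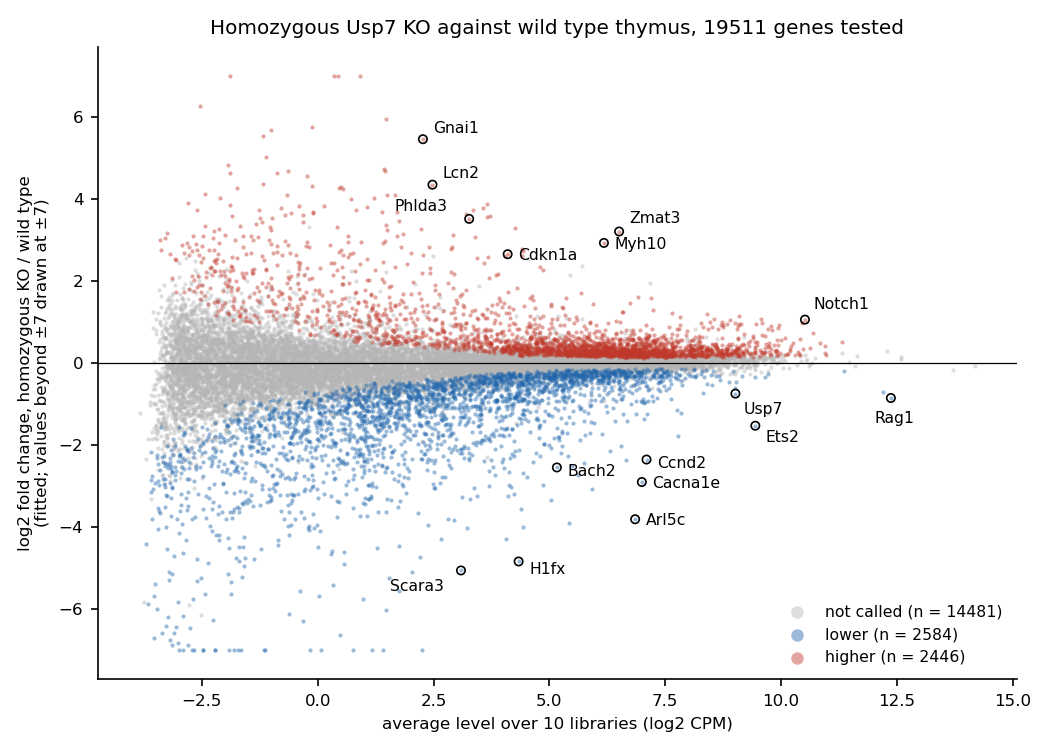
Log2 fold change of homozygous KO over wild type (y axis) against the average level over the 10 libraries in log2 CPM (x axis) for the 19511 genes tested, with called genes in red (2446 higher) and blue (2584 lower). The circled genes are discussed in the text, except Gnai1, Lcn2 and Scara3. The cloud of called genes reaches further down than up among genes of low level, and lies mostly above 0 among the genes of highest level.

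Few genes close to Usp7 on chromosome 16 were called. Within 5 Mb of Usp7, 10 of 93 tested genes were called (10.8%), 3 higher and 7 lower, and 1 of them, Emp2, a tetraspan membrane protein, passed 2-fold (1.47 ± 0.42). Leaving out homozygous KO replicate 2 or 3 ended its call (edgeR adjusted p of 0.0571 and 0.0868), as did leaving out wild type replicate 2 or 4 (0.066 and 0.0555). From 5 to 10 Mb away 22 of 83 genes were called. Over whole chromosomes the share ran from 24.3% on the X chromosome to 30.3% on chromosome 13, where the large histone cluster lies. The share near Usp7 was not tested against that of other regions.

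Targets of p53 rose. Of the 30 listed targets that were tested, 22 rose and none fell, and their median log2 fold change was 0.78. Without wild type replicate 1, 1 fell. Zmat3, an RNA-binding protein induced by p53, was at 199.8, 271 and 239 CPM in homozygous KO, 32.1, 30.2 and 31.8 CPM in heterozygous KO and 23.7, 24.7, 28.6 and 25.5 CPM in wild type thymus. All 3 homozygous KO libraries lay far above the other 7, with a log2 fold change of 3.20 ± 0.10 (edgeR adjusted p = 2.47e-08). Phlda3, a repressor of AKT signalling, was at 20.1, 31.1 and 26 CPM against 2.33, 2.46, 1.81 and 2.45 CPM, a log2 fold change of 3.51 ± 0.18. Eda2r, a receptor of the tumour necrosis factor family, was at 4.37, 4.79 and 3.48 CPM in homozygous KO and had at most 1 count in each wild type library, which makes it at least 57.2-fold higher. Eda2r passed the filter on low counts only through the other libraries and could be called only as higher. Cdkn1a, the p21 inhibitor of cyclin-dependent kinases, was at 46, 42.1 and 33.5 CPM against 4.64, 5.92, 6.99 and 8.08 CPM (2.65 ± 0.18). Heterozygous KO libraries were at 6.72, 7.45 and 9.2 CPM for this gene, inside or just above the wild type range.

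Further targets rose by less. Psrc1, a spindle protein, was among the 12 genes with the smallest p of the whole table, at 46.2, 44.8 and 45.3 CPM against 14.5, 16.1, 15.7 and 15.9 CPM (1.55 ± 0.06, edgeR adjusted p = 1.75e-07). Ccng1, cyclin G1, rose by 1.47 ± 0.08 and Sesn2, a stress-response regulator, by 1.23 ± 0.23. Mdm2, both a target of p53 and its main ligase, was at 140.2, 149.5 and 150.1 CPM against 123, 119, 121 and 133 CPM and rose by only 0.24 ± 0.05, without overlap of the groups. With library totals in place of TMM its call was lost (0.15, edgeR adjusted p = 0.0783). Trp53, which encodes p53, was not called (0.13 ± 0.06, edgeR adjusted p = 0.143). The summed level of the list was 3197, 3579 and 3211 CPM in homozygous KO, 2022, 2064 and 2093 CPM in heterozygous KO and 2179.8, 2124, 2316 and 2015 CPM in wild type.

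The BCL2 family decides cell death at the mitochondrion. Of 15 members tested, 7 rose and 3 fell, with a median of 0.05. Pmaip1 (NOXA), a BH3-only killer protein, was at 46.5, 54.1 and 46.6 CPM against 7.49, 6.84, 6.29 and 8.02 CPM (2.78 ± 0.16). Bbc3 (PUMA), of the same class, was at 35.9, 85.1 and 67.8 CPM against 12.2, 10.7, 10.3 and 18.7 CPM, lowest of the 3 in replicate 1. Bax, the pore-forming effector, rose by 1.36 ± 0.08. These 3 are also p53 targets. Bmf, another BH3-only gene, fell, from 147, 143, 169 and 122 CPM in wild type to 60.1, 65 and 57.9 CPM in homozygous KO (-1.25 ± 0.09), and so did Bcl2l2 (BCL-W), a survival gene (-1.22 ± 0.19). Bcl2 was at 40.4, 56.9 and 41.4 CPM against 52, 55.8, 60.4 and 44.7 CPM and was called, as lower, only without homozygous KO replicate 2.

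**Figure D2:**
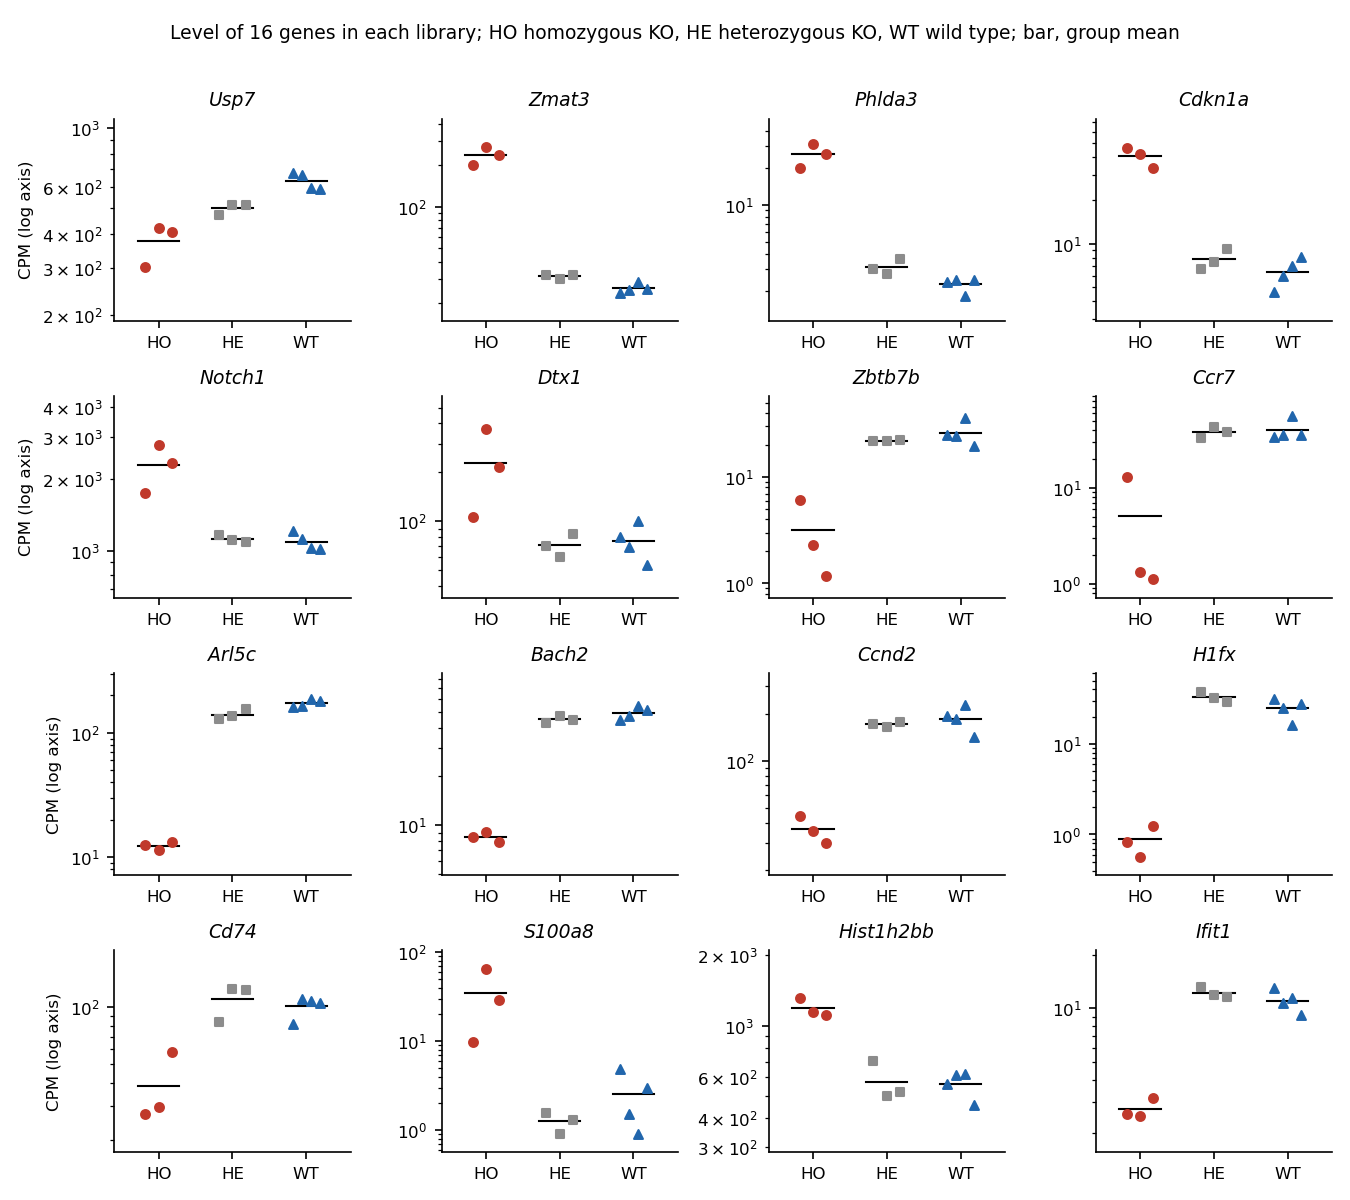
Level in each library (CPM, log axis) of 16 genes, all but S100a8 discussed in the text, in homozygous KO (HO, red circles), heterozygous KO (HE, grey squares) and wild type (WT, blue triangles), with bars at the group means. Zmat3, Phlda3, Cdkn1a, Notch1 and Hist1h2bb lie higher in all 3 homozygous KO libraries than in any other library, and Arl5c, Bach2, Ccnd2, H1fx and Ifit1 lie lower.

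Genes of the cell division machinery were higher. All 25 mitosis genes tested rose, with a median of 0.55 and no overlap of the groups for any of them. Of all genes tested 16.3% lay higher without overlap. In DNA replication and nucleotide supply 24 of 27 genes rose (median 0.40). Birc5 (survivin), a subunit of the chromosomal passenger complex, was at 216, 152 and 169.7 CPM against 108, 112, 107 and 114 CPM (0.70 ± 0.10, edgeR adjusted p = 3.70e-04). Ccna2, the S and G2 phase cyclin, was at 488, 322 and 362 CPM against 251, 260.002, 237 and 246 CPM. Uhrf1, the most abundant per length of the replication list and a USP7 substrate, was at 1427, 1013 and 1183 CPM against 786, 841, 783 and 847 CPM (0.57 ± 0.10). Replicate 1 was the highest of the homozygous KO libraries for each of these genes. With wild type replicates 1 and 2 (wt in duplicate) alone as controls 13 mitosis genes rose. With that pair or replicates 3 and 4 alone 14 and 7 replication genes rose.

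The promoters of the mitosis genes are shown because the genes moved together. Background knowledge ties their timing to the cell-cycle homology region, TTTGAA, and to CCAAT boxes. Over 250 bases before to 50 bases after the start, on either strand, TTTGAA stood in 16 of the 21 mitosis genes with an entry in the RefSeq promoter table (76.2%), and in 14.8% of the tested genes with an entry. CCAAT stood in 18 of the 21, and in 42.0% of the tested genes with an entry. The list was made of known mitosis genes, so these shares describe the list and not the difference between the groups. No match of one motif overlapped a match of the other in the sequences shown. The sequences just upstream of the start of Cdc20, the activator of the anaphase-promoting complex (chr4:118437344-118437463, minus strand), Cdk1, the mitotic kinase (chr10:69352913-69353032, minus strand), and Ccnb2, cyclin B2 (chr9:70421555-70421734, minus strand), follow 5′ to 3′ from RefSeq on GRCm38.p6, with both motifs and their reverse complements in capitals:
Cdc20: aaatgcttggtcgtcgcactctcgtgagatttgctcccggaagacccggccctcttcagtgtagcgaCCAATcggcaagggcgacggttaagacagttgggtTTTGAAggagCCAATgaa
Cdk1: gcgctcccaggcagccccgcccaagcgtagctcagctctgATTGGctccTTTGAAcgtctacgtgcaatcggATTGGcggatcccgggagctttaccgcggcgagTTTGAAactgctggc
Ccnb2: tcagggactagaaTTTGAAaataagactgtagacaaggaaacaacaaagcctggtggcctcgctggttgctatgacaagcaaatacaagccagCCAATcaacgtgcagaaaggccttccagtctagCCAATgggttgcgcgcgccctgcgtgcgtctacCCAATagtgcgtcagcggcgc

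These 3 genes rose by similar amounts. Cdc20 was at 269.7, 195 and 217 CPM against 144, 151, 146 and 149 CPM, Cdk1 at 229, 159.9 and 181 CPM against 130.1, 134, 127 and 142 CPM, and Ccnb2 at 249.9, 167 and 192 CPM against 136, 135, 127 and 147 CPM. The log2 fold changes were 0.63 ± 0.09, 0.51 ± 0.10 and 0.58 ± 0.11, and the groups did not overlap. A match of letters is a description of the sequence and does not show binding. The stretch shown for Ccnb2 is longer (180 against 120 bases), and its TTTGAA lies 167 bases before the start. Those of Cdc20 (18 bases) and Cdk1 (71 and 15 bases) lie nearer, and whether any of them acts was not tested.

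Histone genes that are made in S phase rose with them. Of 49 replication-dependent histone genes tested, 38 rose and 2 fell (median 0.83), and without homozygous KO replicate 1 the number that rose was 25. None fell without homozygous KO replicate 3 or wild type replicate 1 or 2, and 1 without homozygous KO replicate 2 or wild type replicate 3. The summed level was 38196, 26860.2 and 26921 CPM in homozygous KO, 21609, 14433 and 14718 CPM in heterozygous KO and 17671, 19622, 19232 and 12461 CPM in wild type. It differed between libraries whose titles carry the numbers 44 to 51 (replicate 1 of each group and wild type replicates 2 and 3) and those with 56 to 63, and homozygous KO was higher within both ranges. Hist1h2bb, an H2B gene, was at 1313, 1143 and 1106 CPM against 560.4, 614, 620.5 and 456 CPM (1.08 ± 0.13, edgeR adjusted p = 1.98e-04). Hist1h4k, the most abundant per length, rose by 0.84 ± 0.17. Histone genes are near-identical copies of each other, and reads may have been split between them. The linker histone H1fx, which is made outside S phase, went the other way, at 0.833, 0.567 and 1.25 CPM against 31.5, 25.2, 16.4 and 27.5 CPM (-4.83 ± 0.30). Among replacement histones H2afx, the variant phosphorylated at DNA breaks, rose by 0.60 ± 0.13, and H3f3b, an H3.3 gene, fell slightly (-0.26 ± 0.07), and leaving out homozygous KO replicate 2 or 3 ended this call (edgeR adjusted p of 0.0656 and 0.0726). Of 9 replacement histones 4 rose and 2 fell, or 1 fell without homozygous KO replicate 2.

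More regulators of entry into the cycle rose than fell, but not all moved one way. Of 26 G1 cyclins, kinases, inhibitors and Rb family genes, 11 rose (42.3%) and 3 fell (11.5%), with a median of 0.20. Over all genes tested the shares were 12.5% and 13.2%. Without homozygous KO replicate 1 the number that rose was 7. Ccnd2, cyclin D2, was at 44.4, 35.5 and 29.6 CPM against 193, 184, 227 and 142 CPM, a log2 fold change of -2.35 ± 0.16, and Ccnd1, cyclin D1, fell by less (-0.92 ± 0.12). Mycn, a transcription factor that USP7 stabilises, was at 16.2, 19.1 and 20.1 CPM against 8.4, 6.81, 8.29 and 8.63 CPM (1.20 ± 0.11). Cdkn2a, the locus of p16 and ARF, was low in all groups but rose, at 0.903, 1.16 and 1.15 CPM against 0.0491, 0.217, 0.101 and 0.0242 CPM. Cdkn2c (p18) rose by 0.80 ± 0.13. In the list of checkpoint and repair genes, 2 of 30 rose and 1 fell (median 0.14). The number that rose was 10 without homozygous KO replicate 2 and 1 without wild type replicate 1, 2 or 3, and 2 fell without homozygous KO replicate 1.

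**Figure D3:**
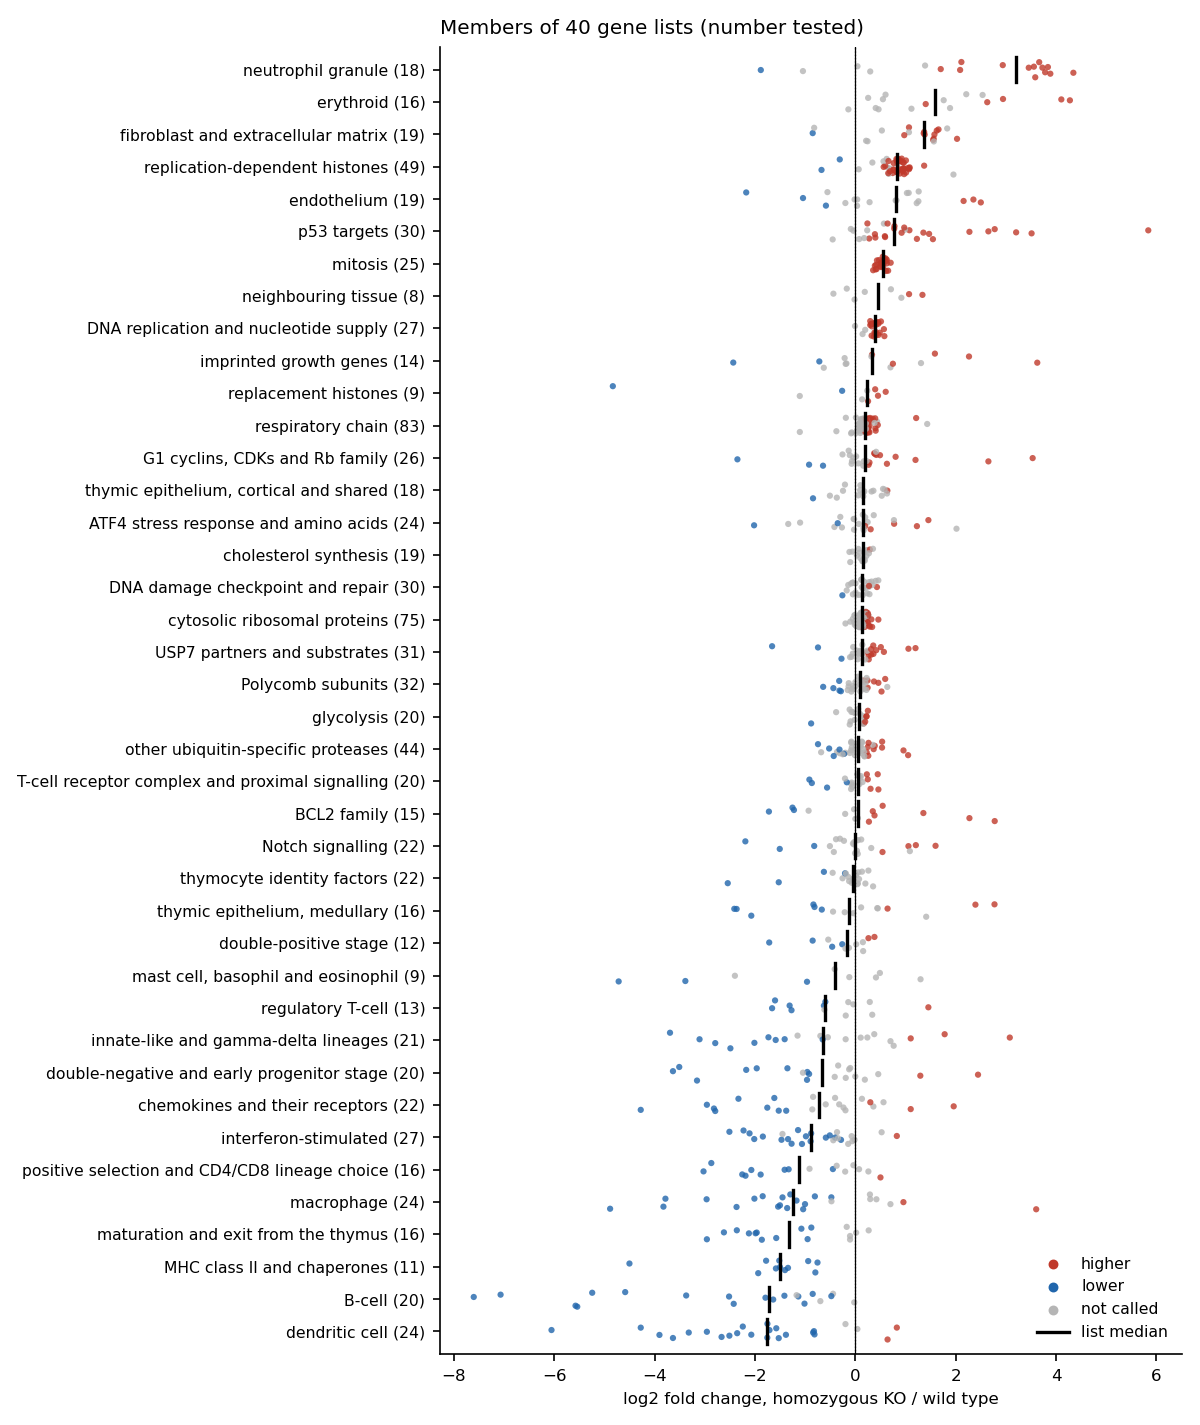
Log2 fold change of homozygous KO over wild type (x axis) of each tested member of 40 gene lists (rows, number tested in brackets), coloured by call, with a black bar at each list's median. A gene whose libraries in 1 group were all at 3 counts or fewer is drawn at its lower bound. Neutrophil genes have the highest median (3.20) and dendritic cell genes the lowest (-1.75), and the mitosis genes lie close together above 0.

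Notch1 and Notch3 rose while the median of the Notch list stayed near 0. Of 22 genes of Notch signalling, 4 rose (18.2%) and 3 fell (13.6%), with a median of -0.02. Over all genes tested the shares were 12.5% and 13.2%. Notch1, the receptor that commits progenitors to the T lineage and a USP7 substrate, was at 1749.6, 2767 and 2341 CPM in homozygous KO, 1169.7, 1112 and 1089 CPM in heterozygous KO and 1209.9, 1128, 1032 and 1022 CPM in wild type. It had the largest rise in CPM of all genes that the rule for largest differences covered (1.06 ± 0.13, edgeR adjusted p = 1.43e-04). Notch3 was at 385, 715 and 607 CPM against 256, 263, 257 and 212 CPM (1.21 ± 0.16). Dtx1, a Notch target, was at 106, 368 and 215 CPM against 79.9, 69.1, 101 and 53.8 CPM, and its replicate 1 lay only just above the wild type maximum. Other targets differed: Hes5 fell (-2.19 ± 0.48), and Hes1 was at 3.91, 28 and 14.2 CPM against 17, 14.9, 14.1 and 36.5 CPM and was not called. Maml2, a coactivator, fell (-1.51 ± 0.11).

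Genes of the earliest progenitors moved mostly down. Of 20 genes of the double-negative and early progenitor stages, 9 fell and 2 rose (median -0.67). The 2 that rose were lost when homozygous KO replicate 1, homozygous KO replicate 2 or wild type replicate 2 was left out, and 1 was lost without wild type replicate 1 or 4. Flt3, a cytokine receptor of multipotent progenitors that dendritic cells also carry, was at 0.234, 0.196 and 0.477 CPM against 3.34, 3.61, 4.32 and 3.64 CPM (-3.64 ± 0.30). Mef2c was at 0.364, 0.528 and 0.421 CPM against 3.58, 7.15, 4.82 and 4.47 CPM, and Bcl11a, needed for lymphoid progenitors and B cells, at 0.599, 0.597 and 0.842 CPM against 6.26, 6.11, 7.34 and 4.5 CPM. Bcl11b, the commitment factor of the T lineage and the most abundant of the list per length, was at 1091, 964 and 970.3 CPM against 1179.8, 1118, 1099.9 and 999 CPM and was not called.

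Genes of the double-positive stage moved in both directions. Of 12 tested, 2 rose (16.7%) and 4 fell (33.3%), with a median of -0.16, against 12.5% and 13.2% of all genes tested. The number that fell was 2 without homozygous KO replicate 3, wild type replicate 1 or wild type replicate 2. Without wild type replicate 3 the number that rose was 4. Rag1, the recombinase that cuts receptor genes, was the most abundant gene of the list per length. It was at 3328, 3507 and 3639 CPM in homozygous KO, 5564, 5579 and 6011 CPM in heterozygous KO and 6561, 6622, 6361 and 5656 CPM in wild type, the largest fall in CPM among called genes (-0.85 ± 0.07, edgeR adjusted p = 1.49e-05). Cd8a rose slightly, at 1577, 1479 and 1476 CPM against 1254, 1277, 1376 and 1135 CPM (0.26 ± 0.07). Cd4 was at 696, 766 and 748 CPM against 631, 656, 745 and 613 CPM and was called, as higher, only without wild type replicate 3. With library totals in place of TMM the call of Cd8a was lost (0.17, edgeR adjusted p = 0.0894).

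Within the T-cell receptor the 2 chains diverged. Of 20 genes of the receptor complex and its proximal signalling, 5 rose (25%) and 4 fell (20%), with a median of 0.05. Of all genes tested 12.5% rose and 13.2% fell. Both constant genes of the beta chain rose, Trbc1 from 512, 539, 545 and 543 CPM in wild type to 715, 728 and 742 CPM in homozygous KO (0.45 ± 0.05) and Trbc2 by 0.30 ± 0.07. The constant gene of the alpha chain, Trac, fell, from 136, 155, 169.97 and 154 CPM to 85.8, 121 and 106 CPM (-0.56 ± 0.11). Lat, the adaptor of receptor signalling, rose (0.46 ± 0.08), whereas Cd5 and Cd28, surface proteins that go up with receptor signals, fell from 161, 164, 201 and 153 CPM to 84, 101 and 84.4 CPM and from 240.3, 227, 251 and 225 CPM to 145, 119.9 and 122 CPM.

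The joining and variable segments of the receptor alpha locus on chromosome 14 showed an ordered pattern. As background, the first rearrangements at this locus join variable (V) segments near the joining (J) cluster to the J segments nearest to them, at the high-numbered end, and later rounds reach low-numbered J segments and distant V segments. Of the 19 tested segments from Traj1 to Traj20, all 19 fell without overlap of the groups, and their summed level was 16.4, 26.3 and 26.5 CPM in homozygous KO against 65.4, 63.4, 48.5 and 71.5 CPM in wild type, 37.1% of the wild type mean. From Traj21 to Traj40, 5 of 20 fell and the sum was 63.4% of wild type, but 8 fell without wild type replicate 3, 3 without any other 1 library and 0 with only wild type replicates 3 and 4 as controls. From Traj41 to Traj61, 1 of 20 rose and none fell, and the sum was 46.7, 44.95 and 52.7 CPM against 48.2, 39.8, 30.2 and 49.9 CPM, or 114% of wild type, with overlap of the groups. The number that rose was 0 without homozygous KO replicate 1 or 3 or wild type replicate 2, 3 or 4 and 2 without homozygous KO replicate 2. In heterozygous KO the sum from Traj1 to Traj20 was 74.7, 37.5 and 46.7 CPM, above all 3 homozygous KO libraries.

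The V segments followed the same order of place. Of the 21 tested Trav segments furthest from the J cluster all 21 fell, to 20.5% of wild type for the first 11 (Trav1 to Trav16d-dv11) and 26.5% for the next 10 (Trav6n-5 to Trav14-1). Some of the 21 lay near the floor in homozygous KO, such as Trav5-1 (0 CPM in all 3 libraries) and Trav1 (0.0260, 0.00978 and 0 CPM). They passed the filter on low counts only through the other libraries and could be called only as lower. The count of 21 of 21 is therefore in part set by the filter. Among the 10 nearest the J cluster 3 fell and 1, Trav18, rose (0.93 ± 0.20), and their sum was 101% of wild type. Without homozygous KO replicate 1 the number that rose was 3, and without wild type replicate 1 or 4 the number that fell was 2. Leaving out any 1 library left all 19 of the low-numbered J segments and 18 to 21 of the 21 distant V segments called lower. With only wild type replicates 3 and 4 as controls the counts were 13 and 18, with only replicates 1 and 2 they were 19 and 16, and with a filter at 1 CPM 8 distant V segments could be tested, of which 8 fell. Segments are short and similar to each other, their reads come from germline as well as rearranged transcripts, and these segments were chosen after their values were seen.

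**Figure D4:**
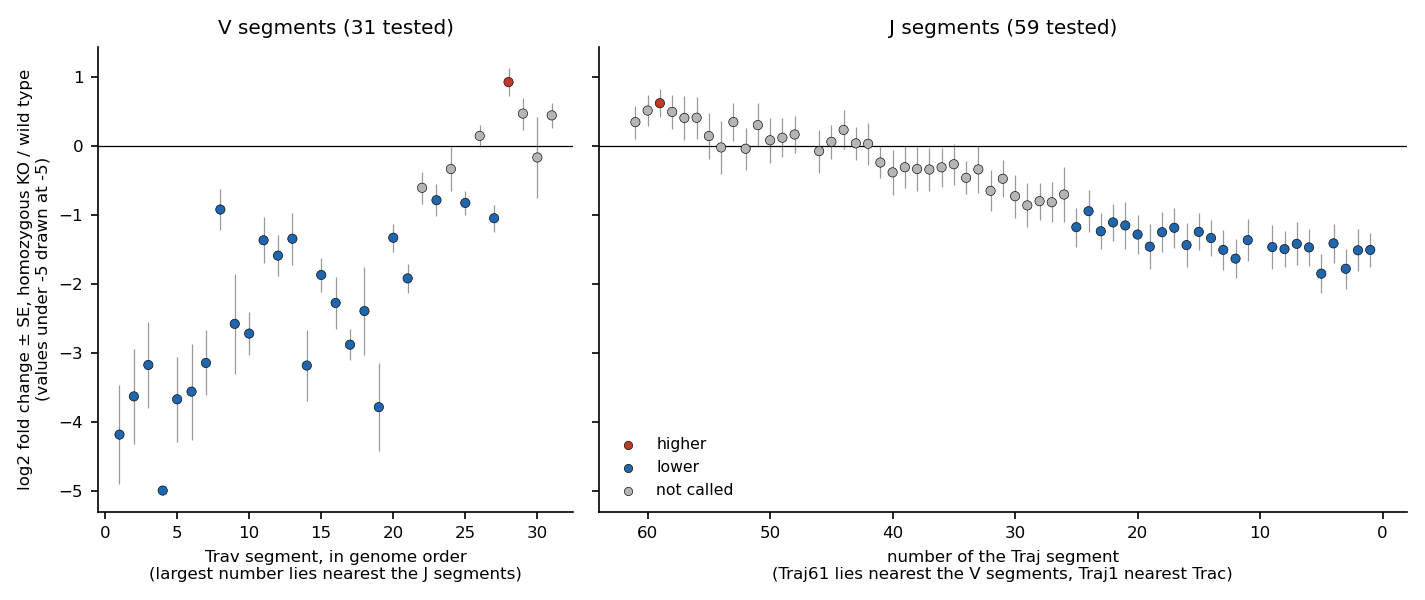
Log2 fold change of homozygous KO over wild type with its SE (y axis) for 31 Trav segments in genome order (left) and 59 Traj segments by number (right), both arranged so that the 2 clusters face each other, and values under -5 drawn at -5. Segments near the junction of the clusters lie around 0, and the change falls with distance from it, to about the level of Traj1 (-1.51) among J segments and lower among V segments.

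Genes switched on by positive selection moved mostly down. Of 16 genes of positive selection and CD4/CD8 lineage choice, 9 fell and 1 rose (median -1.12). Zbtb7b (ThPOK), the master factor of the CD4 lineage, was at 6.09, 2.31 and 1.16 CPM in homozygous KO, 21.9, 21.8 and 22.1 CPM in heterozygous KO and 24.7, 24.5, 36 and 19.5 CPM in wild type (-3.03 ± 0.45, edgeR adjusted p = 6.37e-04). Cd40lg, a CD4 T-cell ligand, fell to 1.43, 0.45 and 0.144 CPM from 4.86, 4.91, 7.62 and 2.67 CPM. Egr1, an immediate early gene of receptor signalling, was at 26.7, 29.5 and 24.1 CPM against 64.8, 70.1, 92.5 and 57.2 CPM, and Cd69, the activation marker of selected cells, at 9.74, 17.6 and 10.7 CPM against 26.7, 25.2, 36 and 39.5 CPM. The member that rose was Runx3, the factor of the CD8 lineage (0.50 ± 0.09), and without homozygous KO replicate 1 the number was 2.

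Maturation and exit genes moved mostly down as well. Of 16 tested, 11 fell and none rose (median -1.33), or 1 rose without homozygous KO replicate 1 or wild type replicate 4. Ccr7, the receptor that guides selected cells to the medulla, was at 13, 1.35 and 1.14 CPM in homozygous KO, with replicate 1 far above replicates 2 and 3, and at 33.7, 35.5, 56.7 and 35.6 CPM in wild type (-2.96 ± 0.71). S1pr1, which draws mature cells into the blood, was at 10.5, 4.13 and 3.76 CPM against 23.2, 25, 33.6 and 25 CPM, and Klf2, the factor that switches it on, at 15.7, 10.2 and 8.2 CPM against 27.3, 36.1, 38.7 and 33.5 CPM. Il7r, the interleukin 7 receptor, fell (-1.97 ± 0.24), and so did Gimap3, of a family of lymphocyte survival proteins (-2.36 ± 0.34). As these are bulk samples, fewer cells of a type and less RNA per cell of that type cannot be told apart.

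Most factors of thymocyte identity did not pass the test, with some large exceptions. Of 22 tested none rose and 4 fell (median -0.04), 18.2% lower against 13.2% of all genes tested. Without homozygous KO replicate 1 or wild type replicate 4 the number that rose was 2 and 1. Bach2, a repressor that restrains effector programs, was at 8.44, 9.09 and 7.86 CPM in homozygous KO, 43, 47.4 and 44.9 CPM in heterozygous KO and 44.8, 47.1, 54.1 and 51.3 CPM in wild type (-2.54 ± 0.09, edgeR adjusted p = 5.97e-08). Ets2 was at 206, 327 and 377 CPM against 846, 854, 945 and 850.5 CPM (-1.53 ± 0.16). Satb1, a chromatin organiser that is abundant in thymocytes, fell slightly, at 2287, 2431 and 2411 CPM against 2737, 2751, 2609 and 2867 CPM.

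Regulatory T-cell genes moved mostly down. Of 13 tested, 6 fell and 1 rose (median -0.60). Foxp3, the factor that defines these cells and a USP7 substrate, was at 2.15, 1.16 and 1.51 CPM against 5.57, 5.95, 5.39 and 3.51 CPM (-1.66 ± 0.25). Icos was at 10.04, 6.2 and 6.45 CPM against 23, 23.1, 28.3 and 17.5 CPM. Ctla4, an inhibitory receptor, rose, from 9.82, 9.96, 8.85 and 13.7 CPM to 14.6, 41 and 31.6 CPM (1.46 ± 0.28), lowest in replicate 1. Without wild type replicate 3 the number that rose was 2.

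Among innate-like and gamma-delta genes, 9 of 21 fell and 3 rose (median -0.65), and without homozygous KO replicate 1 the number that rose was 5. Gzmb, a granule protease, was at 14.1, 46.5 and 19.4 CPM against 3.66, 2.98, 2.97 and 3.03 CPM (3.08 ± 0.36). Tcrg-C4, a constant gene of the gamma receptor, was at 9.21, 30.1 and 16.2 CPM against 5.03, 5.22, 7.36 and 3.92 CPM, and Xcl1, a chemokine of cytotoxic cells, rose by 1.10 ± 0.23. In contrast Zbtb16 (PLZF), the factor of natural killer T cells, fell (-1.59 ± 0.39), as did Maf, which is shared with macrophages (-2.01 ± 0.15). Il17a, the cytokine of a gamma-delta subset, had 0 counts in the 3 homozygous KO libraries, which makes it at least 12.9-fold lower than the wild type mean. Il17a passed the filter on low counts only through the other libraries and could be called only as lower.

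Most genes of antigen-presenting cells fell. Of the 20 B-cell genes tested 16 fell, of 24 dendritic cell genes 20 fell and 2 rose, of 11 MHC class II genes and chaperones all 11 fell, and of 24 macrophage genes 17 fell and 2 rose. Their medians were -1.71, -1.75, -1.50 and -1.23. Among them 3 B-cell genes, 2 dendritic cell genes and 1 macrophage gene had at most 3 counts in every homozygous KO library. Those genes passed the filter on low counts only through the other libraries and could be called only as lower. The counts of genes that fell in these lists are therefore in part set by the filter. Ms4a1 (CD20), a B-cell surface protein, had at most 1 count in each homozygous KO library against 2.92, 8.04, 3.35 and 3.58 CPM in wild type, at least 135-fold lower. Siglech, a receptor of plasmacytoid dendritic cells, had at most 2 counts and was at least 66.6-fold lower. Cd79a, a chain of the B-cell receptor, was also called lower but stayed well above the floor, at 1.61, 1.77 and 1.33 CPM against 5.08, 8.06, 4.39 and 4.34 CPM. The number of dendritic cell genes that rose was 1 without homozygous KO replicate 1 or 3 or wild type replicate 2, 3 or 4, and that of macrophage genes 1 without homozygous KO replicate 2 or 3 or wild type replicate 1 or 2.

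Other genes of these lists fell but stayed above the floor in every homozygous KO library. Cd74, the MHC class II invariant chain and the most abundant of its list per length, was at 27.5, 29.9 and 58 CPM in homozygous KO, highest in replicate 3, 84.2, 125 and 124 CPM in heterozygous KO and 81.4, 111, 108 and 106 CPM in wild type (-1.40 ± 0.25). H2-Ob, an MHC class II chaperone chain of B cells, fell by more (-4.50 ± 0.30). C1qa, a complement gene of macrophages, was at 2.73, 0.978 and 1.64 CPM against 7.64, 8.52, 11.5 and 9.2 CPM, and Apoe, the most abundant of the macrophage list per length, at 33.3, 21.4 and 32.4 CPM against 61.9, 56.3, 76.2 and 67.4 CPM. Ly6d, listed with dendritic cells and also made by other lymphoid cells and epithelium, was at 3.46, 2.87 and 5.61 CPM against 68.7, 69.4, 38.5 and 61.4 CPM.

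Chemokine genes also moved mostly down. Of 22 chemokines and receptors, 9 fell and 3 rose (median -0.72), and without wild type replicate 1 the number that rose was 1. Ccl22, which binds CCR4 on selected thymocytes, was at 1.6, 0.743 and 0.998 CPM in homozygous KO, 21.5, 28.7 and 25.6 CPM in heterozygous KO and 15.6, 19.5, 27.7 and 24 CPM in wild type (-4.28 ± 0.28). Ccl5 was at 0.642, 0.958 and 0.72 CPM against 4.81, 7.22, 4.32 and 5.16 CPM.

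Interferon-stimulated genes also moved mostly down. Of 27 tested, 17 fell and 1, Bst2, rose (median -0.88), or 2 rose without homozygous KO replicate 3. The promoters of Ifit1, Ifit3 and Oas3 are shown because these genes carry the core of the interferon-stimulated response element, GAAA followed after any 2 bases by a further GAAA, through which interferon switches them on. In the same window and on either strand that core stood in 12 of the 20 listed genes with an entry (60.0%) and in 3.79% of the tested genes with an entry. The list was made of genes known to respond to interferon, so this share describes the list and not the difference between the groups. The upstream sequences of Ifit1 (chr19:34640769-34640888, plus strand), Ifit3 (chr19:34583359-34583528, plus strand) and Oas3 (chr5:120777660-120777779, minus strand) are from RefSeq on GRCm38.p6, with the core or its reverse complement (built of TTTC blocks) in capitals:
Ifit1: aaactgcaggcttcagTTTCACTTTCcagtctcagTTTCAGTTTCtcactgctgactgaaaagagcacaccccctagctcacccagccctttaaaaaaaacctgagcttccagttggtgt
Ifit3: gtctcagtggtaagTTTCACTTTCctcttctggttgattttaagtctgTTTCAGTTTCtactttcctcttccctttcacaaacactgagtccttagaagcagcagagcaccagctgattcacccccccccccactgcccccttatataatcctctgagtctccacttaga
Oas3: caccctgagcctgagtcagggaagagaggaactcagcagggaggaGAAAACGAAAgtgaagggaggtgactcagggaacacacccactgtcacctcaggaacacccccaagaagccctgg

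Ifit1 and Ifit3 encode RNA-binding proteins that block viral messages. Ifit1 was at 2.55, 2.5 and 3.14 CPM in homozygous KO, 13.2, 11.8 and 11.6 CPM in heterozygous KO and 13, 10.7, 11.4 and 9.14 CPM in wild type (-2.02 ± 0.14, edgeR adjusted p = 4.86e-06). Ifit3 was at 1.84, 3.25 and 2.75 CPM against 9.87, 7.39, 5.38 and 6.43 CPM, and Oas3, a sensor of RNA duplexes, at 6.62, 6.68 and 5.08 CPM against 14.8, 13.5, 13.7 and 12.2 CPM. Oas2, Mx2 and Oasl1 also fell, with log2 fold changes of -2.11, -2.23 and -2.51. Bst2 (tetherin), which also carries the core, rose, at 26.4, 29.4 and 28.2 CPM against 17.7, 16.6, 14.7 and 14.3 CPM (0.83 ± 0.09). The summed level of the list was 482, 535 and 495 CPM in homozygous KO and 724, 646, 666 and 631 CPM in wild type. Dendritic cell genes (20 of 24 lower) and macrophage genes (17 of 24 lower) moved the same way, and their part in this result was not tested.

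Neutrophil granule genes rose, unevenly between libraries. Of 18 tested, 13 rose without overlap and 1 fell (median 3.20). Their summed level was 86.7, 401 and 212 CPM in homozygous KO and 66.3, 58.5, 59.1 and 61.1 CPM in wild type. Ngp, a granule protein, was at 13.3, 64.8 and 29.1 CPM against 4.86, 2.96, 1.35 and 3.17 CPM, and Ltf, lactoferrin, at 11.7, 63.6 and 35.6 CPM against 4.57, 1.54, 1.2 and 2.84 CPM. Replicate 2 was the highest and replicate 1 the lowest of the 3 for both. Mpo, myeloperoxidase of early granules, was at 0.139, 2.15 and 0.0665 CPM against 1.23, 1.76, 1.8 and 1.69 CPM and was called, as lower, only without homozygous KO replicate 2. Padi4, which citrullinates histones, was the member that fell (-1.88 ± 0.17), and 2 fell without homozygous KO replicate 2.

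Erythroid genes depended on the library. Of 16 tested 5 rose and none fell (median 1.58), 11 rose without homozygous KO replicate 3, and 1 rose with the Xist level as a covariate. The summed level was 1266, 1172 and 276 CPM in homozygous KO and 397, 662, 655 and 918 CPM in wild type, so that replicate 3 lay under and replicates 1 and 2 above all wild type libraries. Ank1, ankyrin of the red cell membrane, was at 16.4, 7.89 and 0.166 CPM against 0.172, 0.313, 0.664 and 0.641 CPM, called higher although replicate 3 lay just under the wild type range. Of 9 genes of mast cells, basophils and eosinophils 3 fell, among them Cpa3, a mast cell protease that early progenitors also make (0.304, 0.235 and 0.366 against 8.45, 7.37, 11.4 and 4.53 CPM), and Kit, the stem cell factor receptor (-0.96 ± 0.20).

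**Figure D5:**
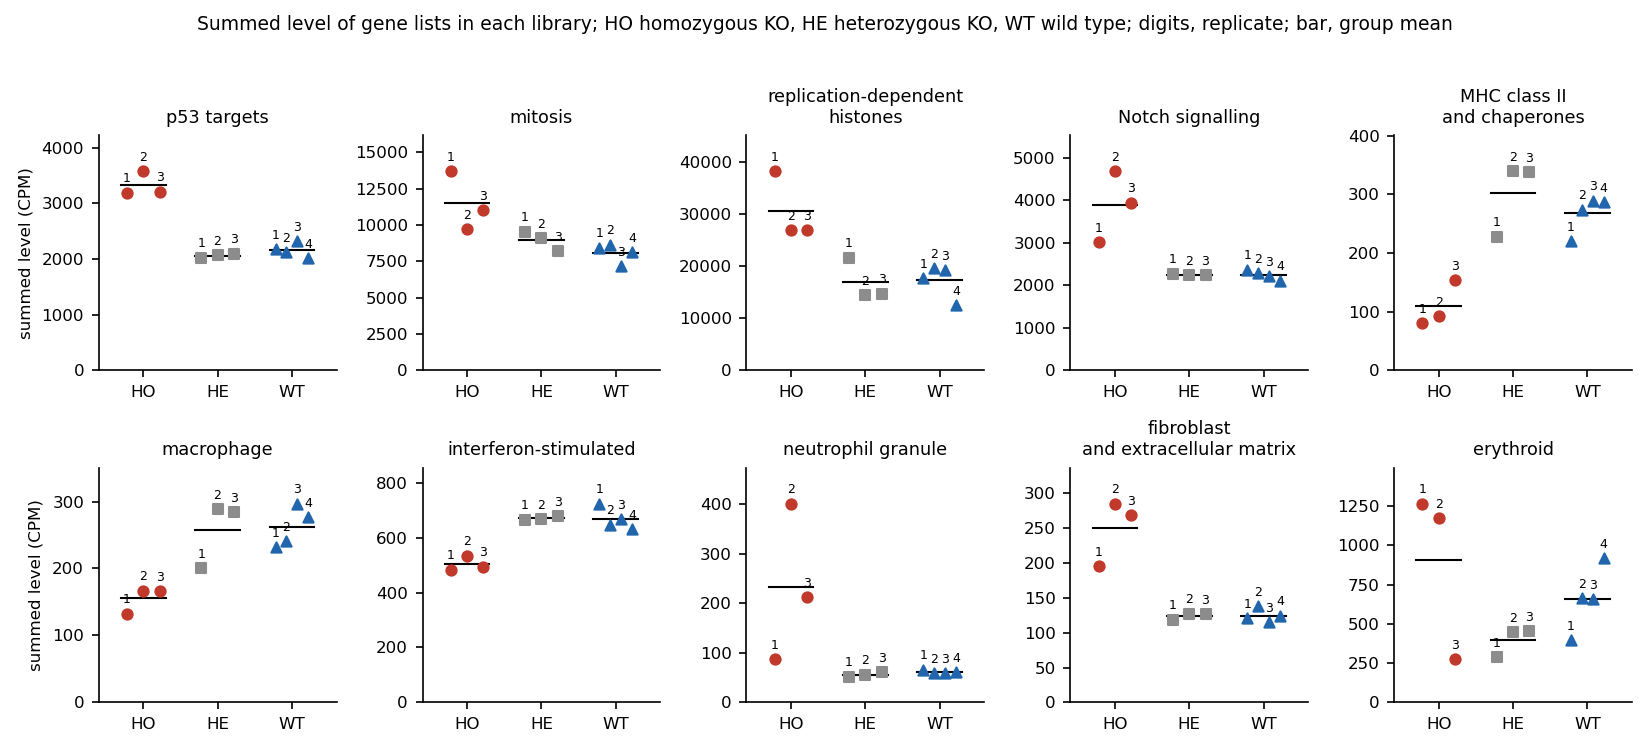
Summed level (CPM) of 10 gene lists in each library of homozygous KO (HO, red circles), heterozygous KO (HE, grey squares) and wild type (WT, blue triangles), with replicate numbers beside the points and bars at the group means. Homozygous KO lies apart from the other libraries in every list shown except the erythroid genes, where replicate 3 is the lowest of all.

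Some genes of the stromal lists were called. Cortical and shared epithelial genes showed 1 rise and 1 fall among 18 (median 0.16). None rose without homozygous KO replicate 2 or 3 or wild type replicate 1, 2 or 3, and 2 fell without homozygous KO replicate 3. Foxn1, the master factor of thymic epithelium, was at 3.36, 2.67 and 6.18 CPM against 2.68, 4.5, 3.07 and 4.91 CPM, and Psmb11, the thymoproteasome subunit, at 6.36, 6.2 and 12.1 CPM against 7.05, 11.5, 8.76 and 10.6 CPM, and neither was called. Of 16 medullary genes 6 fell and 3 rose, and without homozygous KO replicate 3 the number that rose was 1. Aire, which drives the display of tissue antigens, fell from 1.3, 0.842, 2.12 and 1.4 CPM to 0.208, 0.205 and 0.421 CPM (-2.37 ± 0.39). Cldn4, a tight junction protein that marks Aire-positive epithelium, was at 4.59, 4.15 and 4.43 CPM against 21.8, 22.5, 23.9 and 25.3 CPM (-2.41 ± 0.10, edgeR adjusted p = 1.23e-07). Krt5, a keratin of the medulla, rose, from 1.84, 1.93, 3.65 and 2.82 CPM to 8.44, 13.5 and 31.3 CPM, highest in replicate 3.

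Of 19 fibroblast and matrix genes 11 rose and 1 fell (median 1.37). This count was 4 without homozygous KO replicate 2, 7 without homozygous KO replicate 3, and 5 and 7 when wild type replicates 1 and 3 were left out. No gene fell without homozygous KO replicate 3 or wild type replicate 1 or 3. Fbln1, a matrix protein, was at 80.8, 77.1 and 71.2 CPM against 23.4, 25.3, 28.2 and 25.5 CPM (1.58 ± 0.09), and Fbln2 was at 70.5, 97.2 and 93.4 CPM against 50.1, 48.9, 29.8 and 48.4 CPM. Of 19 endothelial genes 3 rose and 3 fell (15.8% each), near the 12.5% and 13.2% of all genes tested. The number that rose was 0 without homozygous KO replicate 2, 6 without homozygous KO replicate 1 and 1 without wild type replicate 4. Erg, an endothelial factor that progenitors also express, fell (-2.18 ± 0.36), and so did Eng, endoglin (-1.04 ± 0.09).

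Of 14 imprinted growth genes 5 rose and 2 fell (median 0.33). H19 was at 102, 357 and 376 CPM against 103, 100.03, 102 and 65.7 CPM, inside the wild type range in replicate 1 and above it in replicates 2 and 3, while Cdkn1c (p57), a growth inhibitor, fell (-0.72 ± 0.10). Of 8 genes of neighbouring tissues 2 rose, and 0 or 1 rose without homozygous KO replicate 2 or 3 or wild type replicate 3 or 4.

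Part of the genes in housekeeping lists rose by small amounts. Of 83 nuclear genes of the respiratory chain 39 rose and none fell (median 0.20), and of 75 cytosolic ribosomal protein genes 18 rose and none fell (median 0.13). These counts were 21 and 10 without homozygous KO replicate 1, and 24 and 9 without replicate 2. Without wild type replicate 4, 1 gene of the chain fell. Leaving out wild type replicates 1, 2 or 3 gave 9, 9 and 11 ribosomal genes and leaving out replicate 4 gave 32. With library totals in place of TMM 13 genes of the chain and 5 ribosomal genes rose. The median log2 fold change of heterozygous KO over wild type was 0.11 for the chain and 0.17 for the ribosomal genes. In homozygous against heterozygous KO, 8 genes of the chain were called higher and 1 lower, and of the ribosomal genes 1 higher and 1 lower. Cox6b2, a cytochrome c oxidase subunit made mainly in testis, had the largest log2 fold change of the genes of the chain that rose, at 12.9, 13.4 and 10.2 CPM against 5.6, 6.23, 5.22 and 4.04 CPM. Rps19 was at 446, 469 and 449 CPM against 315, 325, 335 and 349 CPM (0.46 ± 0.05).

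Among the metabolic lists only cholesterol synthesis had few calls. Of glycolysis genes 30% were called, of the ATF4 response 29.2% and of cholesterol genes 5.26%, against 25.8% of all genes tested. Of 20 glycolysis genes 5 rose and 1 fell, and the number that rose was 1 to 3 without homozygous KO replicate 1 or 2 or wild type replicate 1, 2 or 3. The gene that fell was Pdk1, a pyruvate dehydrogenase kinase, at 53.8, 56.7 and 52.9 CPM against 105, 101, 92.1 and 104 CPM (-0.88 ± 0.06). Of 19 cholesterol genes 1 rose (median 0.15), and 9 rose without homozygous KO replicate 2, 2 without wild type replicate 3 and 0 without homozygous KO replicate 1 or wild type replicate 1 or 2. Of 24 genes of the ATF4 response 5 rose and 2 fell, with 3 rises without wild type replicate 1. Asns, asparagine synthetase, was at 15.1, 9.13 and 8.71 CPM in homozygous KO, 14.2, 9.05 and 7.92 CPM in heterozygous KO and 3.49, 4.04, 3.77 and 4.67 CPM in wild type, so that heterozygous KO overlapped homozygous KO. Slc7a11, the cystine importer, which p53 is known to repress, was at 21.2, 22 and 52.1 CPM against 106, 123, 124 and 161 CPM (-2.02 ± 0.29).

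Among proteins that USP7 binds or deubiquitinates, 12 of 31 genes rose and 3 fell, Usp7 among them (median 0.13). Dnmt1 rose by 0.36 ± 0.09, beside Uhrf1, Notch1 and Mycn above. Tcf3 and Tcf12, which encode the E proteins E2A and HEB, were at 265, 245 and 247 and 629, 751 and 723 CPM in homozygous KO against 223, 235, 235 and 227 and 600.2, 589, 588 and 664 CPM in wild type, and neither was called. The groups did not overlap for Tcf3, which lay higher in homozygous KO. Tcf12 was called, as higher, without homozygous KO replicate 1 or wild type replicate 4, among other alternatives. Of the 18 alternatives, 16 left Tcf3 uncalled and 14 left Tcf12 uncalled. Of 32 Polycomb genes (median 0.10) 7 rose (21.9%) and 5 fell (15.6%), against 12.5% and 13.2% of all genes tested. The number that fell was 1 to 3 without any 1 library other than wild type replicate 4. Ezh2, the methyltransferase, was at 518, 384 and 418 CPM against 326, 327, 305 and 323 CPM and Bcor, a subunit of a variant complex, at 249.5, 283 and 277 CPM against 183, 191, 182 and 195 CPM. Of 44 ubiquitin-specific proteases, Usp7 included (median 0.06), 10 rose (22.7%) and 5 fell (11.4%), against 12.5% and 13.2% of all genes tested. The number that fell was 2 without homozygous KO replicate 2 and 3 without wild type replicate 2. Usp46 rose by 0.96 ± 0.15 and Usp28, a protease of the p53 pathway, by 0.39 ± 0.06. Usp47, the closest relative of Usp7, was at 226, 233 and 226 CPM against 194, 191, 181 and 195 CPM (0.26 ± 0.04).

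The gene with the smallest p in the table was outside these lists. Arl5c, a small GTPase, was at 12.7, 11.5 and 13.2 CPM in homozygous KO, 129, 137 and 156 CPM in heterozygous KO and 161, 165, 189 and 179.9 CPM in wild type (-3.81 ± 0.09, edgeR adjusted p = 4.08e-09). Among the 12 smallest p were also Wdfy4, a factor of antigen cross-presentation (11.3, 10.7 and 9.18 against 69.3, 77.1, 71.5 and 58.4 CPM), Sp100, a nuclear body protein (70.1, 72.6 and 75.2 against 176, 171, 172 and 167 CPM), and Mgst2, a glutathione transferase (11, 10.4 and 11.7 against 40.1, 39.3, 39.9 and 37.3 CPM), all lower. Among abundant genes Cacna1e, a calcium channel subunit, fell from 164, 176, 185 and 236 CPM to 19, 29.7 and 27.9 CPM, and Itga4, an integrin chain of lymphocyte adhesion, from 318, 329, 280.5 and 254 CPM to 106, 65.7 and 87.2 CPM. St6gal1, a sialyltransferase on chromosome 16, was at 15.4, 9.85 and 6.38 CPM against 83.8, 82.6, 119 and 71.1 CPM (-3.08 ± 0.28). Aim2, a sensor of cytosolic DNA, fell (-3.79 ± 0.29).

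Other large rises were also outside the lists. Myh10, a non-muscle myosin, was at 191, 185 and 176 CPM in homozygous KO and 23.9, 20.3, 19.99 and 32.4 CPM in wild type (2.93 ± 0.15, edgeR adjusted p = 5.10e-07). Rps6ka6, a ribosomal S6 kinase on the X chromosome, was at 68.6, 41.7 and 41.3 CPM against 1.84, 2.77, 9.98 and 5.48 CPM. Lin28b, a fetal RNA-binding protein that blocks let-7 microRNAs, was at 20.5, 9.58 and 8.88 CPM against 0.614, 0.746, 3.45 and 0.375 CPM, with wild type replicate 3 above the other wild types. Dglucy, of glutamate metabolism, and Fam174b rose by 3.12 ± 0.25 and 2.82 ± 0.20. Ptma, prothymosin alpha, an abundant gene of dividing cells, rose by less, from 1668, 1633, 1375 and 1615 CPM to 2449, 2078 and 2069 CPM.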

How the data were processed

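The deposited table held whole-number read counts per gene, which the authors made and did not normalise; the submitters' processing notes name CASAVA, STAR 2.4.1d, HTSeq 0.6.1p1 and NCBIM37 (mm9). The library kit keeps strand, but whether HTSeq used it is not given in the sources used here. Counts were used as deposited. Genes passing filterByExpr were fitted over all 10 libraries with edgeR 4.0.16 (R 4.3.3; TMM scaling, quasi-likelihood F-test, Benjamini-Hochberg adjusted p under 0.05), without covariates, and homozygous KO was contrasted with wild type. In counts simulated from wild type means over 19028 genes, 100 genes were changed 2-fold and 100 4-fold, all at an average log2 CPM above 2. Of these 91% and 99% were recovered, with 10 false calls. The simulation held no differences of sex, title number or RNA composition, no changed genes of low level and far fewer changes than were called. Its figures therefore do not give the recovery or false calls in the real data. DESeq2 1.42.0, other scalings and filters, covariates, pairs of wild types and leaving out each library were tried as alternatives. Nothing in the labels states how the mice were related, so p-values measure the spread between these samples.

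Symbols and chromosomes of 18026 tested genes (92.4%) came from GENCODE on GRCm38, and promoters from RefSeq on GRCm38.p6 matched by symbol. No coordinate was converted between builds. The members and gene lists were chosen with earlier results of these data known. Genes were named by rule: Usp7, the 15 largest called rises and falls that had an average log2 CPM of 2 or more and non-overlapping groups, the 10 largest rises and falls in CPM, up to 3 called genes per list and direction at an average log2 CPM of 1 or more, the most abundant member per length, and the 12 smallest p. Not every gene the rule gave is printed. Chosen after their values were seen were Acta1, Aire, Bcl2, Ccnb2, Ccng1, Cd3e, Cd4, Cd69, Cd79a, Cdc20, Cdk1, Cdkn2a, Dnmt1, Eda2r, Egr1, Emp2, Foxn1, Hes1, Hes5, Ifit1, Ifit3, Il17a, Il7r, Klf2, Mdm2, Mpo, Oas3, Psmb11, S1pr1, Siglech, St6gal1, Tcf12, Tcf3, Tg, Trp53, Usp28, Usp47 and the receptor segments. Some genes of the lists are not reported here. Of the tested genes 51.4% overlap another gene, whose reads may have been shared, and among those printed this holds for Acta1, Aim2, Aire, Ank1, Bach2, Bax, Bcl11a, Bcl2, Bcl2l2, Ccna2, Ccnd1, Ccnd2, Cd3e, Cd74, Cdc20, Cdkn1a, Cdkn1c, Cpa3, Ctla4, Dglucy, Dnmt1, Eng, Ezh2, Fam174b, Flt3, Foxp3, H19, H1fx, H2afx, Hes5, Icos, Itga4, Krt5, Lat, Maf, Maml2, Mgst2, Mpo, Ms4a1, Notch1, Notch3, Oas2, Oasl1, Rag1, Runx3, Satb1, Sesn2, Slc7a11, Sp100, St6gal1, Tcf12, Tg, Usp46, Usp7, Wdfy4, Xcl1 and Zbtb7b.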

Additional observations from a re-analysis of the deposited data

Results flagged for a closer look

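In some genes 1 wild type library lay apart from the other 3 by Dixon's criterion, which chance meets in about 1 in 20 groups. Wild type replicate 3 was the highest for Lin28b (3.45 against 0.375 to 0.746 CPM), Ets2 (945 against 846 to 854 CPM) and Ccr7 (56.7 against 33.7 to 35.6 CPM), and the lowest for Fbln2 (29.8 against 48.4 to 50.1 CPM). Replicate 4 was the lowest for Notch3 (212 against 256 to 263 CPM), H19 (65.7 against 100.03 to 103 CPM) and Bcl2l2 (4.99 against 5.67 to 5.78 CPM), and the highest for Hes1 (36.5 against 14.1 to 17.0 CPM) and Tcf12 (664 against 588 to 600.0 CPM). Replicate 1 was the highest for Gzmb (3.66 against 2.97 to 3.03 CPM), Oasl1 (3.44 against 2.17 to 2.21 CPM) and Trav18 (2.19 against 1.44 to 1.56 CPM), and the lowest for Cd74 (81.4 against 106 to 111 CPM). Replicate 2 was the highest for Ms4a1 (8.04 against 2.92 to 3.58 CPM) and for Eda2r, where its 0.0241 CPM is a single count.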

How the results depend on the processing

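Of the 5030 calls, 1981 (39.4%) kept their direction and their call in all 18 alternatives, 798 higher and 1183 lower. Usp7 stayed lower and called in all 18. Leaving out 1 library at a time gave 3945 to 4933 calls, 1793 to 2338 higher and 2057 to 2595 lower, and over 2-fold 1627 to 1885 genes, 399 to 608 higher and 1219 to 1284 lower. With only wild type replicates 3 and 4 as controls 2670 genes were called, 1047 higher and 1623 lower, with 310 over 2-fold higher, and with only replicates 1 and 2 the number higher was 1610. Library totals in place of TMM gave 1435 higher. A minimum of 1 CPM in 3 libraries left 1157 calls over 2-fold, 281 higher and 876 lower, from fewer genes tested. DESeq2 called 5820 genes. For the other changes the cause was not tested. Replicate numbers did not pair the samples (same-number correlations of 0.15, -0.09 and -0.14), and the fit with a replicate block called 4934 genes, with Usp7 at -0.79. Some uncalled genes changed sign: Foxn1 was at -0.13 with the range of title numbers as a term and ran from -0.33 to 0.33 when 1 library was left out (-0.03 without wild type replicate 1). Hes1 ran from -1.19 to 0.025 in the same way (0.0041 without wild type replicate 4), and Psmb11 was at 0.028 with Xist as a covariate. The wild type libraries with the fewest counts limit genes near the floor.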
